A study of Mus musculus with 6 samples.

Results

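Leukocyte signaling genes were examined in primary mouse astrocyte cultures, as 10 genes chosen by name: Ptprc, Laptm5, Coro1a, Lcp1, Lcp2, Vav1, Syk, Btk, Plcg2 and Inpp5d. Each symbol matched 1 entry of the 55357 genes in the table, and all 10 were expressed highly enough to be tested, among 15280 tested genes. The astrocytes were grown from the cortex of late embryonic C57BL/6 mice. In 3 cultures (KE, genotype K499E), transfection introduced BRAF KE, a RASopathy variant of the kinase BRAF, with a FLAG tag and under the CMV promoter, which does not restrict expression to astrocytes. The comparison group was 3 nontransfected cultures (NT, genotype naive), and RNA was taken at 48 hours. No culture with an empty plasmid or with wild-type BRAF was analysed here, so the plasmid and its insert cannot be told apart. Whether the 3 cultures of a group came from separate animals is not stated, and the spread between them may be technical.

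The 10 genes encode proteins of hematopoietic cells, which in the brain are mainly microglia and border macrophages. Receptors that carry or pair with an immunoreceptor tyrosine-based activation motif (ITAM), such as Fc receptors and TREM2, are phosphorylated by SRC-family kinases, which the receptor phosphatase CD45 (Ptprc) keeps in an activatable state. The kinase SYK docks on the phosphorylated motif and signals through the adaptor SLP-76 (Lcp2), the RAC exchange factor VAV1, the kinase BTK and the phospholipase PLCγ2 (Plcg2). The lipid phosphatase SHIP1 (Inpp5d) removes the phosphoinositide that recruits BTK and PLCγ2. Coronin 1A (Coro1a) and L-plastin (Lcp1) organize leukocyte actin, and LAPTM5 is a lysosomal membrane protein of leukocytes that promotes the degradation of receptors. Astrocytes themselves are not known for this machinery.

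The values are normalized counts, that is, estimated reads per gene divided by a size factor for each culture. An approximate depth, taken from the most frequent low value as the worth of a read, lay between 24500000 and 34100000 reads per culture, lowest in KE replicate 2. Braf, the transfected gene, was 34933 to 40978 normalized counts in KE and 811 to 946 in NT, so each library carried the Braf level of its label. The 10 defining astrocyte markers summed to 194523 to 200354 normalized counts in KE and 142105 to 150693 in NT. Of these 10 markers, 7 were higher in KE, Gja1 was lower and 2 were not called. S100b, 1 of these 2, was low, at 11.8 to 22.6 normalized counts in KE and 21.7 to 31.5 in NT.

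All 10 leukocyte signaling genes were lower in KE than in NT, in every KE culture against every NT culture. The log2 of the fold change between KE and NT (log2FC) had a median of -3.29 over the 10 genes and ran from -3.72 for Lcp1 to -1.61 for Plcg2, while the median of all tested genes was 0.0018. Each passed the threshold of an adjusted p-value under 0.05 in limma with Benjamini-Hochberg adjustment over all tested genes, with adjusted p-values between 6.33e-09 and 1.81e-06. The background was high. Of all tested genes, 51.3% passed that threshold in either direction and 26.0% were lower and 25.3% higher in KE. The groups did not overlap for 59.9% of tested genes, with KE below NT for 29.9%. A called fall beyond a log2FC of -1, which all 10 genes showed, was found for 5.69% of tested genes. Since RNA of whole cultures was sequenced, fewer cells of a type and less RNA per cell cannot be told apart.

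**Figure D1:**
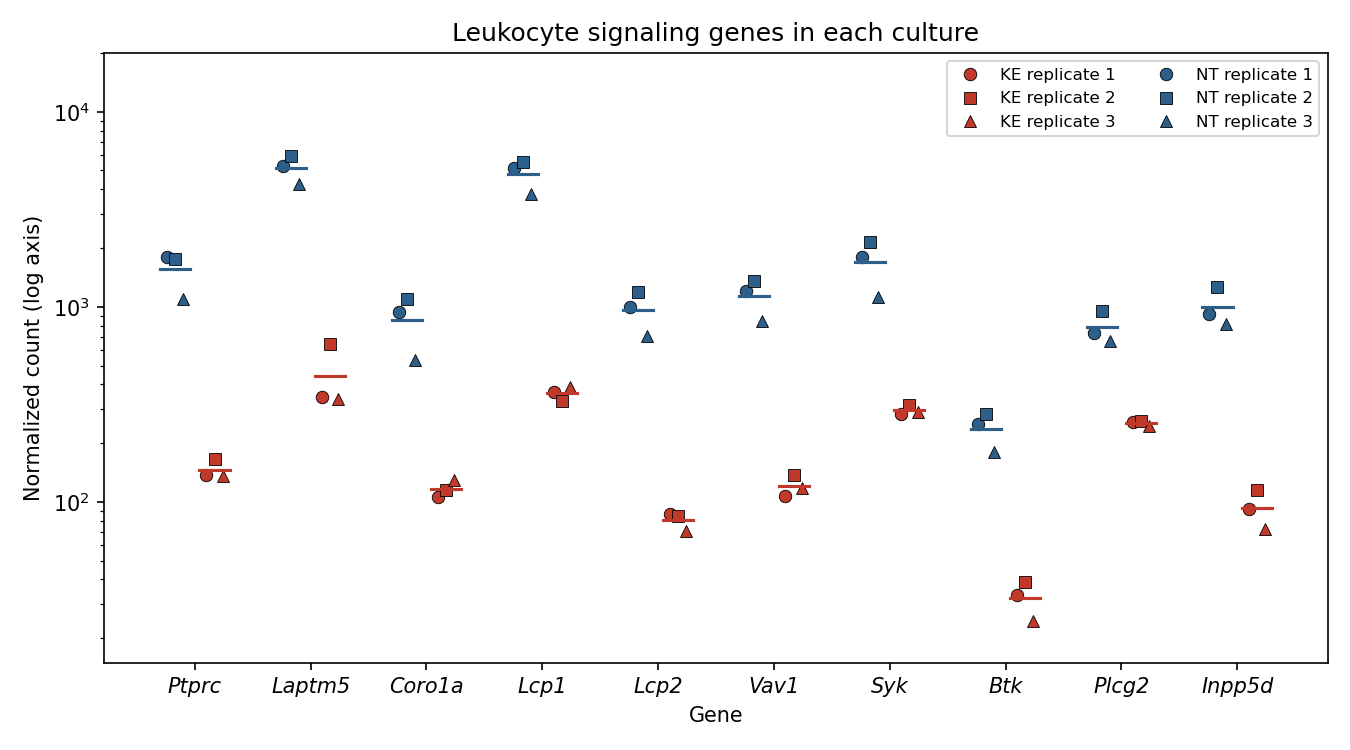
Normalized count of each leukocyte signaling gene (log axis) in the 3 KE and the 3 NT cultures. Points are cultures, with the symbol giving the replicate number, and horizontal lines are group means. The NT values lie above the KE values for all 10 genes, and NT replicate 3 (triangle) is the lowest NT culture each time.

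Sequence near the transcription start was searched for the PU box GAGGAA, through which the ETS factor PU.1 (Spi1) drives many myeloid genes. Spi1 was itself lower in KE, and whether it played a part in the fall of the 10 genes was not tested. Spi1 was 62.2, 95.1 and 40.5 normalized counts in KE and 832, 1037 and 620 in NT, and its log2FC was -3.69 (adjusted p = 9.90e-07 from limma). RefSeq promoter windows of 300 bases on GRCm38.p6, from 250 bases before to 50 bases after an annotated start, were found for all 10 genes. A PU box on either strand was present for 7 of them, in 7 of their 14 windows, compared with 31.3% of all 27025 genes with a window and 28.3% of all 32851 windows. Other genes of hematopoietic cells were not compared separately. The 7 windows follow as stretches of 100 bases, 5′ to 3′ on the strand of the gene, to show where the box lies. Capitals mark the PU box, which reads TTCCTC where it lies on the opposite strand.

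Vav1: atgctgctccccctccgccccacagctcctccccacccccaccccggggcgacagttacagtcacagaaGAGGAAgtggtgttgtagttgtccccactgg
Syk: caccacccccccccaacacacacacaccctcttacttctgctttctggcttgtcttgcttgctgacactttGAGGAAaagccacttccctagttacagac
Inpp5d: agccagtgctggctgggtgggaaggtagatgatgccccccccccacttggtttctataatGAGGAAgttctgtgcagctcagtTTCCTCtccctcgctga
Laptm5: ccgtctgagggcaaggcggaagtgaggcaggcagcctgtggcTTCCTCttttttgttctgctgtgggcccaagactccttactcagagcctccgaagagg
Lcp2: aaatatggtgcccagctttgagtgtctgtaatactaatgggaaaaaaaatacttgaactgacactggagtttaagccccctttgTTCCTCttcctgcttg
Btk: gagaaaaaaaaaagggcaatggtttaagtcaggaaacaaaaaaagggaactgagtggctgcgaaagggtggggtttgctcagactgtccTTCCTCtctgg
Ptprc: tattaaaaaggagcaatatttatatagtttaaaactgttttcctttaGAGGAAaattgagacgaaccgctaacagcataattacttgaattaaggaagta

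The stretches lie on GRCm38.p6 at chr17:57279020-57279119 (plus strand) for Vav1, chr13:52596802-52596901 (plus) for Syk, chr1:87620232-87620331 (plus) for Inpp5d, chr4:130913236-130913335 (plus) for Laptm5, chr11:34046848-34046947 (plus) for Lcp2, chrX:134583121-134583220 (minus) for Btk and chr1:138175411-138175510 (minus) for Ptprc. In Vav1, Syk and Inpp5d the box begins 11, 9 and 20 bases before the annotated start, on the strand of the gene, and Inpp5d has another just after the start on the opposite strand. In Laptm5 it begins 38 bases before the start on the opposite strand. The boxes of Lcp2 and Btk lie just after the start on the opposite strand, and that of Ptprc begins 158 bases before the start. Syk and Ptprc each had another annotated window without the box. The letters were not in the windows of Coro1a, Lcp1 and Plcg2, which include the genes with the largest and the smallest fall of the 10. A match of letters describes these windows and is not a binding site.

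Ptprc (ENSMUSG00000026395), the receptor phosphatase CD45, is encoded on chromosome 1 (GRCm39, 137990599 to 138103446, minus strand). It was 137, 165 and 135 normalized counts in KE replicates 1, 2 and 3 and 1802, 1764 and 1094 in NT replicates 1, 2 and 3. The highest KE culture was far below the lowest NT culture, and NT replicate 3 was below the other two. Its mean was 146 ± 16.8 in KE and 1553 ± 398 in NT (SD, n = 3), 10.6-fold lower in KE, with a log2FC of -3.37 (95% confidence interval -3.76 to -2.99, adjusted p = 7.54e-08 from limma). Laptm5 (ENSMUSG00000028581; plus strand, chromosome 4, 130638161 to 130663452) was 345, 644 and 337 in KE and 5242, 5905 and 4277 in NT. KE replicate 2 stood above the other KE cultures, at 1.89 times their mean, and still below every NT culture. The fall was 11.6-fold, with a log2FC of -3.59 (-4.06 to -3.13, adjusted p = 1.90e-07 from limma).

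The actin-binding proteins comprised the largest fall of the 10. Lcp1 (ENSMUSG00000021998; plus strand, chromosome 14, 75367978 to 75468289), or L-plastin, bundles actin filaments. It was 364, 329 and 386 normalized counts in KE and 5131, 5551 and 3770 in NT, with means of 360 ± 28.7 and 4817 ± 931 (SD, n = 3). This is a 13.4-fold lower level in KE and a log2FC of -3.72 (-4.00 to -3.44, adjusted p = 6.33e-09 from limma). Coro1a (ENSMUSG00000030707; minus strand, chromosome 7, 126298942 to 126307022) was 105, 114 and 129 in KE and 936, 1090 and 534 in NT. The groups did not overlap, although NT replicate 3 was at 0.527 of the mean of the other NT cultures, the lowest such value of the 10 genes. The log2FC of Coro1a was -2.81 (-3.29 to -2.33, adjusted p = 1.53e-06 from limma).

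The adaptor and the exchange factor changed to a similar extent. Lcp2 (ENSMUSG00000002699; plus strand, chromosome 11, 33996920 to 34042426), the scaffold that holds PLCγ and VAV1 near activated receptors, was 86.8, 84.6 and 70.9 normalized counts in KE and 996, 1188 and 712 in NT. Its log2FC was -3.54 (-3.92 to -3.16, adjusted p = 5.24e-08 from limma), an 11.95-fold lower mean. Vav1 (ENSMUSG00000034116; plus strand, chromosome 17, 57586095 to 57636235) was 108, 138 and 118 in KE and 1210, 1361 and 849 in NT. Its log2FC was -3.20 (-3.57 to -2.84, adjusted p = 7.54e-08 from limma). For both genes NT replicate 2 was the highest and NT replicate 3 the lowest of the NT cultures.

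Of the kinases, Syk (ENSMUSG00000021457; plus strand, chromosome 13, 52736696 to 52802828) was 282, 315 and 288 normalized counts in KE and 1810, 2156 and 1129 in NT. The means of 295 ± 17.1 and 1698 ± 522 (SD, n = 3) differed 5.75-fold, with a log2FC of -2.47 (-2.88 to -2.06, adjusted p = 1.19e-06 from limma). The KE cultures were close to each other, whereas the NT cultures were spread widely. Btk (ENSMUSG00000031264; minus strand, chromosome X, 133443084 to 133484319), the kinase that activates PLCγ2, had the lowest levels of the 10 genes. It was 33.4, 39.0 and 24.4 in KE and 249, 284 and 180 in NT. The groups were well apart, and the log2FC of Btk was -2.84 (-3.34 to -2.35, adjusted p = 1.81e-06 from limma).

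The lipid enzymes differed in the size of the fall. Inpp5d (ENSMUSG00000026288; plus strand, chromosome 1, 87547989 to 87648230), the phosphatase SHIP1, was 91.9, 115 and 72.8 normalized counts in KE and 921, 1259 and 812 in NT. Its log2FC was -3.40 (-3.82 to -2.99, adjusted p = 1.24e-07 from limma). Plcg2 (ENSMUSG00000034330; plus strand, chromosome 8, 118224988 to 118361881), the phospholipase that yields the calcium-releasing messenger IP3, was 257, 260 and 244 in KE and 736, 947 and 669 in NT. The groups did not overlap, and the means of 253 ± 8.71 and 784 ± 145 (SD, n = 3) differed 3.09-fold. The log2FC of Plcg2 was -1.61 (-1.88 to -1.34, adjusted p = 1.41e-06 from limma). Its confidence interval did not overlap that of any of the other 9 genes, the nearest being Syk.

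Levels can be set side by side between genes only per transcript length, here the normalized count per kilobase of the Ensembl canonical transcript. On this scale Laptm5 (1974 ± 314, SD, n = 3) and Lcp1 (1283 ± 248) were the highest in NT, followed by Coro1a (508 ± 171). Ptprc (303 ± 77.7), Syk (289 ± 88.9), Vav1 (273 ± 63.0), Lcp2 (256 ± 63.4), Inpp5d (202 ± 47.3) and Plcg2 (181 ± 33.4) came next. Neighbors in this order, from Ptprc to Plcg2, differed by less than the larger of their SDs. Btk was the lowest, at 93.5 ± 20.8. In KE, Laptm5 (170 ± 67.2), Lcp1 (95.8 ± 7.64) and Coro1a (69.1 ± 6.99) again led, and Plcg2 (58.4 ± 2.01), ninth of the 10 in NT, was the fourth. It was followed by Syk (50.2 ± 2.90), Vav1 (29.0 ± 3.70), Ptprc (28.5 ± 3.28), Lcp2 (21.4 ± 2.28), Inpp5d (18.9 ± 4.31) and Btk (12.7 ± 2.91). In KE the neighbors Vav1 and Ptprc, and Lcp2 and Inpp5d, differed by less than the larger of their SDs.

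The genes varied together within the groups. NT replicate 3 was the lowest NT culture for all 10 genes, at 0.527 to 0.795 of the mean of the other two, whereas it was the lowest for 32.0% of all tested genes. NT replicate 2 was the highest NT culture for 9 of the 10 genes, Ptprc being the exception, against 34.9% of all tested genes. KE replicate 2 was the highest KE culture for 7 of the 10, against 38.0%, and ranged from 0.878 of the mean of the other KE cultures for Lcp1 to 1.89 for Laptm5. The summed normalized count of 16 microglia and macrophage markers moved the same way, at 0.808 in NT replicate 3 and 1.37 in KE replicate 2 relative to the mean of the other cultures of the group. Whether these markers played a part in the spread was not tested. Without NT replicate 3, all 10 genes were still called lower in KE.

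To ask whether the fall extended to other members of the same protein families, 17 relatives of 9 of the genes were compared, many of them expressed in most cell types. Of the 13 that were tested, 5 were lower, 5 were higher and 3 were not called, with a median log2FC of 0.07 and a range from -1.04 to 0.75. Of all tested genes, 26.0% were lower and 25.3% higher. Next to L-plastin, whose log2FC was -3.72, the T-plastin gene Pls3 had one of 0.12 (adjusted p = 0.109 from limma, 95% confidence interval -0.01 to 0.25) and Pls1 rose by 0.45. Next to Plcg2, its relative Plcg1 was 3065, 3471 and 3459 normalized counts in KE and 3340, 3356 and 3424 in NT, and the groups overlapped. The log2FC of Plcg1 was -0.02 (-0.16 to 0.12, adjusted p = 0.808 from limma). SHIP2 (Inppl1), the relative of SHIP1, had a log2FC of 0.07 (-0.09 to 0.22, adjusted p = 0.455 from limma).

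Other relatives were called lower, by less than the leukocyte gene of their family. The log2FC was -0.37 for Vav2 and -0.95 for Vav3, against -3.20 for Vav1. Tec, the relative of Btk, had a log2FC of -0.84, and the phosphatase Ptpre had one of -1.04, whereas Ptpra rose by 0.39. Coro1c had a log2FC of -0.69 and Coro1b of 0.22, though the call of Coro1b was lost under 3 of 14 alternative settings. The lysosomal relatives of Laptm5 were both higher in KE, Laptm4a by 0.75 and Laptm4b by 0.31. The relatives Zap70, Bmx and Txk were too low to be tested, with at most 4.83 normalized counts in any culture.

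**Figure D2:**
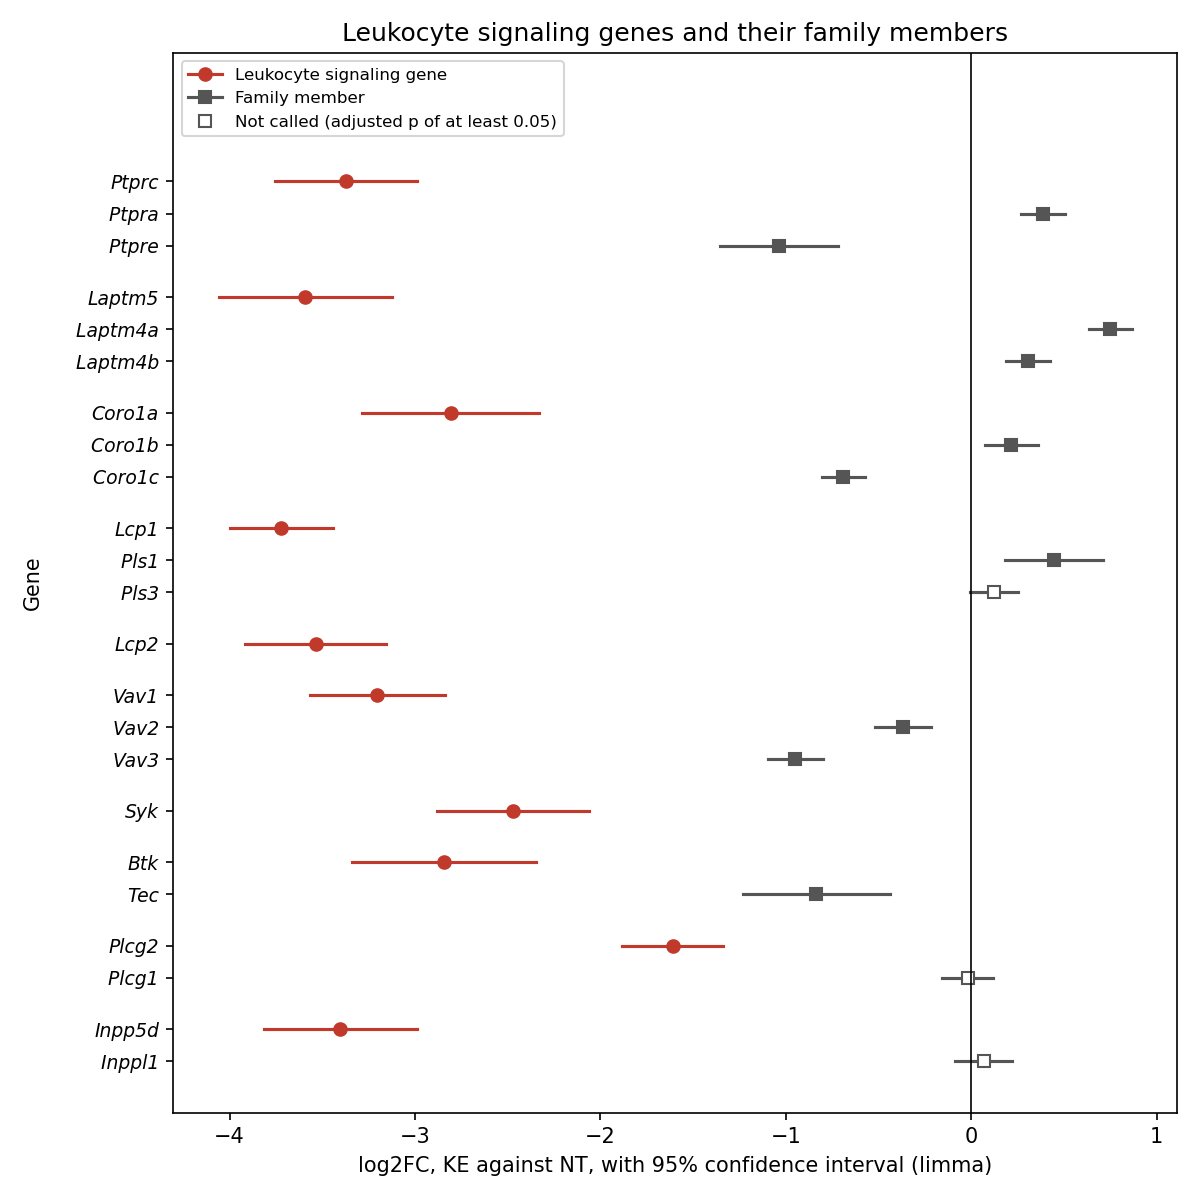
log2FC between KE and NT, with 95% confidence intervals from limma, for the leukocyte signaling genes (circles) and the tested members of their families (squares), where open squares were not called. The circles lie between -3.72 and -1.61 and the squares between -1.04 and 0.75, and in each family the interval of the leukocyte gene lies below those of its relatives.

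Per kilobase, the leukocyte gene therefore made up less of its family in KE. Lcp1 was 44.6% ± 5.67 (SD, n = 3) of the 3 plastins in NT and 5.24% ± 0.161 in KE. Vav1 was 31.5% ± 4.70 of the VAV genes in NT and 7.45% ± 1.03 in KE, and Ptprc was 26.9% ± 4.94 of its group and 2.74% ± 0.356. Inpp5d fell from 20.9% ± 3.68 to 2.31% ± 0.433 of the SHIP genes and Laptm5 from 18.3% ± 2.62 to 1.19% ± 0.495 of the LAPTM genes. Coro1a fell from 9.88% ± 3.02 to 1.73% ± 0.214 of Coro1a, Coro1b and Coro1c together. Btk changed from 64.5% ± 3.80 to 30.1% ± 3.98 of the TEC-family kinases and Plcg2 from 21.4% ± 3.19 to 8.24% ± 0.671 of the PLCγ enzymes. Syk made up 97.0% ± 1.08 of SYK and ZAP70 in KE and 100% in every NT culture, where Zap70 was listed at 0. The KE and NT shares did not overlap in any of the 9 families, where an exact two-sided permutation test gave 0.1 each, the smallest p that 3 cultures against 3 allow. The shares reuse the levels given above, so they are not separate support for the falls. For Syk the difference rests on a few reads of Zap70 in KE.

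The other genes of immunoreceptor signaling were described with a list of 49, of which 45 were tested. In KE, 33 were lower, 3 were higher and 9 were not called, and the median log2FC was -1.21. Of the 45, 23 were called with a fall beyond a log2FC of -1. Over all tested genes, 26.0% were called lower, 25.3% were called higher and 5.69% had such a fall. Both ITAM-bearing adaptor chains were lower, Tyrobp (DAP12) with a log2FC of -3.51 and the Fc receptor γ chain Fcer1g with one of -3.33. Tyrobp was 188, 235 and 140 normalized counts in KE and 2265, 2083 and 1959 in NT. Its NT replicate 3 was at 0.901 of the mean of the other NT cultures, above the highest such value of the 10 genes.

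The SRC-family kinases, which phosphorylate the ITAM, were divided. Lyn and Fyn were lower, with log2FC of -0.63 and -0.32, and Src was higher by 0.31. Lck, a member best known from T cells, was the largest rise on the list. It was 123, 144 and 95.5 normalized counts in KE and 40.5, 51.3 and 25.4 in NT, and its log2FC was 1.64 (adjusted p = 3.69e-04 from limma). The groups did not overlap, and Lck was thus opposite in direction to all 10 leukocyte signaling genes.

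Among adaptors, 6 of 9 were lower and 3 were not called. Blnk, the relative of SLP-76 used by B cells and myeloid cells, had a log2FC of -3.16, Lat2 one of -2.55, Fyb one of -2.06 and Gab3 one of -1.66. All 8 regulators of small GTPases and actin were lower, with a median log2FC of -3.57. They include Rac2, the hematopoietic RAC that VAV1 activates (-3.70), its exchange factor Dock2 (-3.85), the integrin activator Fermt3 (-3.89) and Was, which promotes actin branching (-3.70). Of the PI3-kinase genes, Pik3cg (-3.83), Pik3ap1 (-2.88) and Pik3r5 (-0.72) were lower and 2 were not called. Downstream of PLCγ2, Rasgrp3 (-3.15) and Prkcb (-2.39) were lower.

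Inhibitors of the pathway were also on the list. Of 11, 7 were lower, 1 was higher and 3 were not called. Sla (-3.67), Dok3 (-3.38), the phosphatase SHP-1 (Ptpn6, -3.15) and Dok2 (-2.11) had the largest falls, whereas Dok1 was higher in KE, at 492 to 548 normalized counts against 293 to 300.5 in NT (log2FC 0.80). Genes that activate and genes that restrain the pathway were thus both found among those lower.

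**Figure D3:**
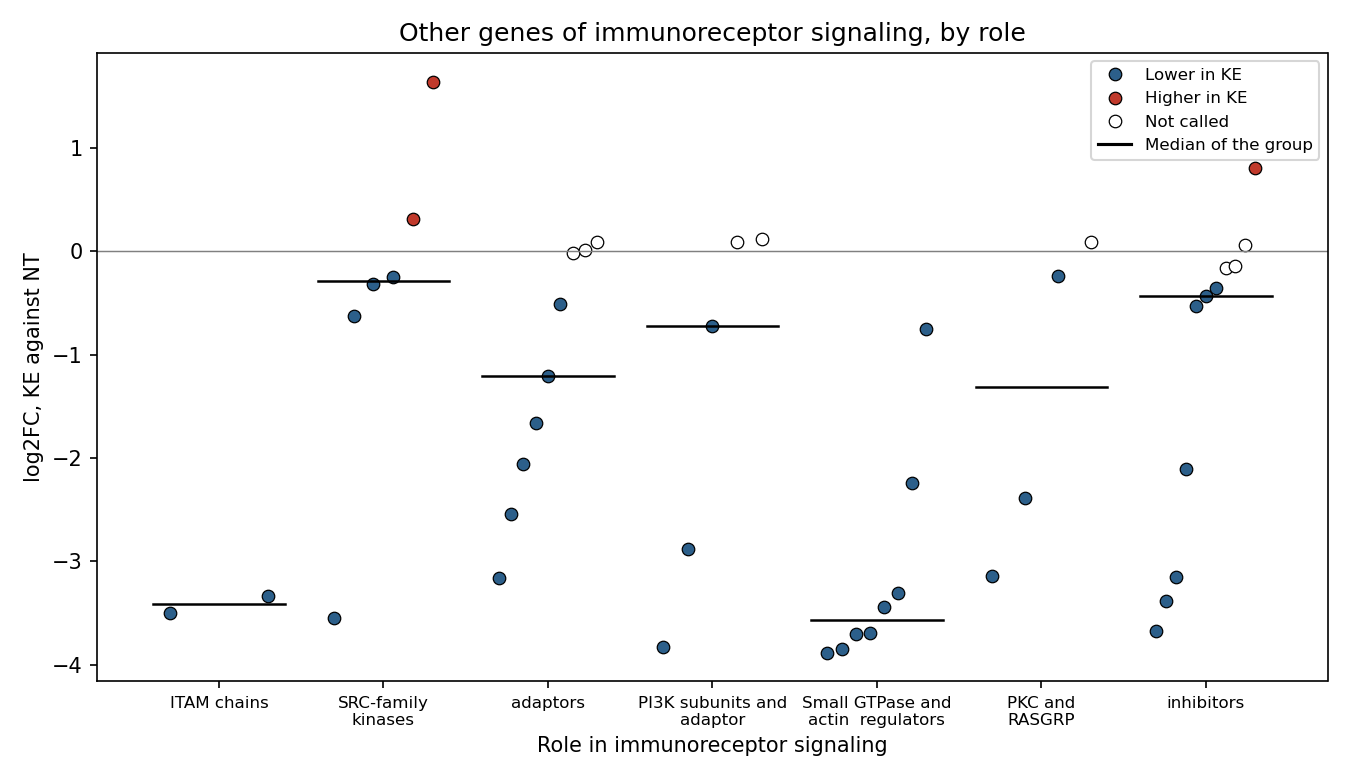
log2FC between KE and NT for the 45 tested genes of immunoreceptor signaling outside the 10, grouped by role. Points are genes, filled where called lower (blue) or higher (red) in KE and open where not called, and lines are group medians. The small GTPase and actin regulators and the ITAM chains lie lowest, with medians of -3.57 and -3.42, and Lck lies highest at 1.64.

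Markers of microglia and macrophages, the brain cells best known for these genes, were lower as well. All 16 microglia and macrophage markers were tested and lower in KE, against 26.0% of all tested genes. Their median log2FC was -3.37, with a range from -4.66 for Mrc1 to -0.88 for P2ry12. Their summed normalized count was 5932 to 8194 in KE and 52651 to 65390 in NT, a 9.09-fold lower mean, and the sum of the 10 leukocyte signaling genes was 9.37-fold lower. The part of the marker change in the fall of the 10 genes was not tested. Markers of other leukocytes were at or near 0. The 10 T and B cell markers summed to 1.80 to 3.62 normalized counts in KE and 6.56 to 14.3 in NT, and 5 of them, Cd3e, Cd3d, Cd3g, Cd8a and Cd2, were listed at 0 in every culture. The 6 neutrophil markers summed to 3.60 to 6.26 in KE and 12.9 to 21.1 in NT without overlap, and of these S100a8 was listed at 0 in KE and was 8.22 to 19.2 in NT. The 4 NK and mast cell markers summed to 2.37 to 5.98 in KE and 4.55 to 5.43 in NT. Markers of other cell types also moved. All 5 tested markers of the oligodendrocyte lineage were lower in KE, from Mbp (log2FC -1.89) to Cspg4 (-0.35), and the list summed to 1859 to 2312 normalized counts in KE and 3272 to 3620 in NT. Of 4 tested neuron markers, Tubb3 was higher, Map2 was lower and 2 were not called, and of 4 tested vascular and mesenchymal markers, Pecam1 and Dcn were lower and 2 were not called. The part of these markers in the fall of the 10 genes was not tested either.

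Each of the 10 genes was therefore also expressed as a percent of the summed microglia and macrophage markers of the same culture, to see how evenly genes and markers had moved. The median difference between KE and NT on the log2 scale was -0.10 over the 10 genes. The KE and NT percentages overlapped for 6 of them. Vav1 followed the markers most closely, at 1.82% ± 0.138 (SD, n = 3) of the sum in KE and 1.85% ± 0.234 in NT, a difference of -0.02 with an exact two-sided permutation p of 0.9. Differences for Ptprc (-0.19), Inpp5d (-0.22), Lcp2 (-0.36), Btk (0.31) and Coro1a (0.37) were accompanied by overlapping percentages.

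The other 4 genes departed from the marker sum without overlap. Plcg2 was 4.33%, 3.17% and 4.06% of the sum in KE and 1.13%, 1.45% and 1.27% in NT, a difference of 1.58 on the log2 scale. Syk was 4.76%, 3.84% and 4.80% in KE and 2.79%, 3.30% and 2.14% in NT, a difference of 0.72. These genes were thus higher relative to the markers in KE, while their normalized counts were lower. In contrast, Lcp1 and Laptm5 were lower relative to the markers, by differences of -0.53 and -0.40. For each of the 4 the exact two-sided permutation p was 0.1, the smallest this design allows, so none of the 10 comparisons can pass 0.05.

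**Figure D4:**
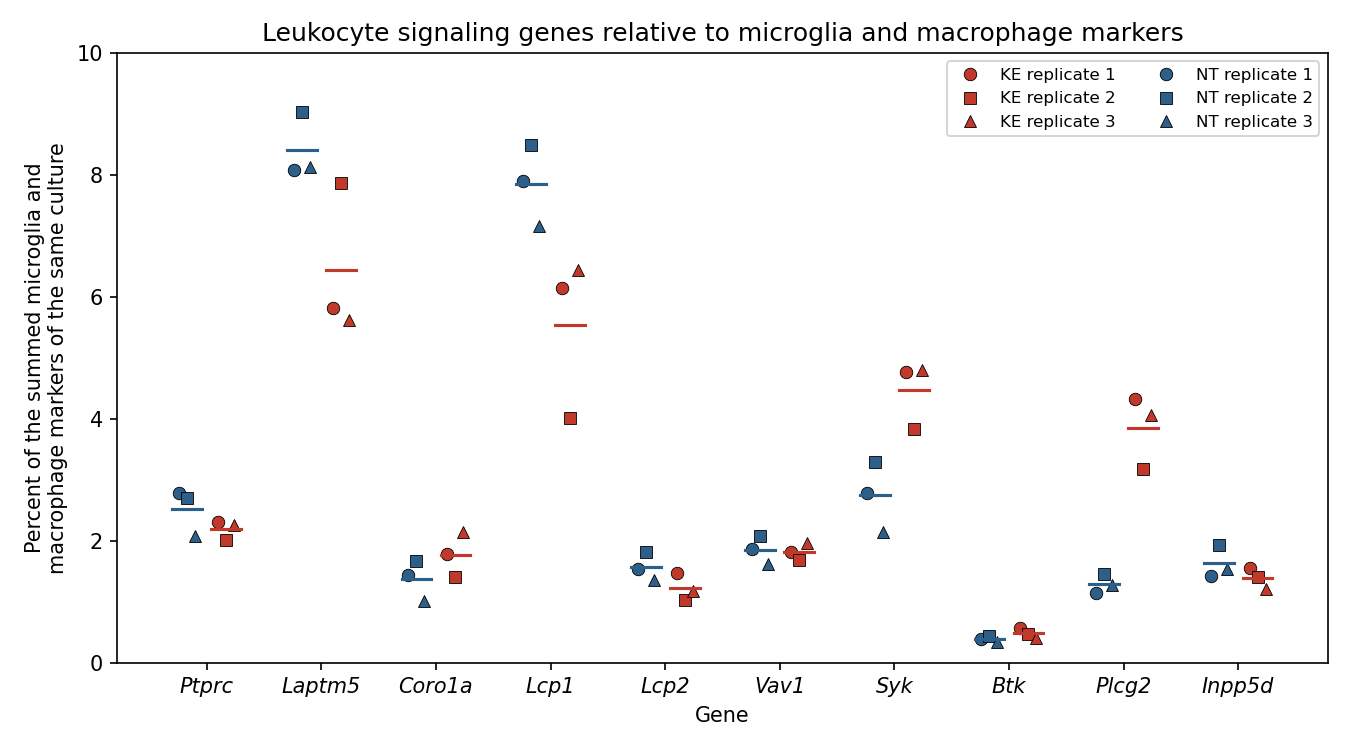
Each leukocyte signaling gene as a percent of the summed normalized count of 16 microglia and macrophage markers in the same culture. Points are cultures and lines are group means. The KE points lie above the NT points for Plcg2 and Syk, below them for Lcp1 and Laptm5, and overlap for the other 6 genes.

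Genes with the most similar pattern were sought among the 12062 other genes with a mean of at least 100 normalized counts. The measure was the root mean square distance, over the 6 cultures, between a gene's log2 profile and the mean profile of the 10 genes, each centered on its own mean. The 5 closest were Bcl2a1d, Ms4a7, Lair1, Pik3ap1 and Sash3, at distances of 0.039, 0.069, 0.094, 0.104 and 0.110. Bcl2a1d was 53.1, 66.3 and 50.7 normalized counts in KE and 494, 595 and 354 in NT, but it belongs to a family of near-identical copies and its reads may be divided among them. Among the 10 genes themselves, the distance was smallest for Vav1 (0.094) and largest for Plcg2 (0.732). With 6 cultures in 2 groups, the size of the difference between KE and NT enters this measure directly.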

How the data were processed

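RNA-seq of cultured mouse astrocytes comprised 3 KE and 3 NT libraries, made with a stranded mRNA kit. Groups and replicate numbers came from the sample titles, although the treatment text in the labels describes transfection for all 6. The authors deposited a normalized signal per gene, that is, Salmon gene counts divided by DESeq2 size factors, after trimming with Trim Galore and alignment with STAR. This removes depth and assumes that most genes do not change. The methods name GRCm39 for mouse, whereas the processing notes list GRCh38. The identifiers are of mouse genes. Batches are mentioned but not named. Whole reads were not recovered (74.7% to 77.6% of low values were near a whole multiple of the worth of a read, within 0.1), and no count model was used.

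Values were log2-transformed after adding a pseudocount of 1 and analyzed by limma 3.58.1 (R 4.3.3), with a variance trend and no covariate, in the 15280 genes with a mean of at least 10. This scale makes changes of weakly expressed genes look smaller. Tests were two-sided, with Benjamini-Hochberg adjustment over all tested genes. Lists were described by counts and medians. The genes and lists were chosen with earlier results of these data known. Named were the 10 genes, their family members, up to 4 genes with the largest log2FC and every rise in each signaling role, and the 5 nearest profiles. A few genes of the lists are not reported here. Coordinates and transcript lengths came from Gencode vM39 on GRCm39, which held 54749 of the 55357 identifiers, and promoter windows from RefSeq on GRCm38.p6, without conversion. The fits were tested on simulated data. Alternatives were other pseudocounts, filters and scalings, no trend, a replicate block and leaving out each culture.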

Additional observations from a re-analysis of the deposited data

How the results depend on the processing

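All 10 leukocyte signaling genes were called lower in KE under each of the 14 alternatives, and the log2FC nearest to 0 was that of Plcg2, between -1.72 and -1.47 (adjusted p 7.27e-08 to 4.39e-04 from limma). Counts over the lists moved by less than 1.5 times. The signaling list had 31 to 34 genes lower and 3 higher, the family list 5 to 6 lower and 4 to 7 higher, and all 16 microglia and macrophage markers were lower throughout. Of 809 comparisons of a single signaling or family gene with an alternative, 793 kept direction and call, 14 lost the call, 2 gained it and 0 turned. Leaving out each culture gave 6776 to 7199 called genes in all. Over 7 alternatives, the median difference relative to the marker sum lay between -0.19 and -0.01, and Vav1 relative to the markers lay between -0.12 and 0.07. A replicate block in the fit gave 8046 called genes, 7669 of them also without it, and all 10 leukocyte signaling genes were among those lower. Same-numbered KE and NT cultures had weak correlations of deviations across genes, of 0.059, 0.066 and 0.065. Those of cultures with different numbers lay between -0.0499 and -0.0105. Each thus correlated best with its own number, a hint of pairing from the data and not from the design, and the main fit used no pairing. Scaling moved the median log2FC of all genes by at most 0.03. Among the 10 leukocyte signaling genes, Btk in KE, at 24.4 to 39.0 normalized counts, rests on the fewest reads.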

Other observations

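Of kinases best known from T cells, Lck was higher in KE, as given above, and others were too low to be tested. Zap70 was 4.83, 3.58 and 2.37 normalized counts in KE and was listed at 0 in the 3 NT cultures. These levels are near that of a few reads. Of the T cell markers, Cd3e, Cd3d, Cd3g, Cd8a and Cd2 were listed at 0 throughout and Cd4 reached at most 1.93. Txk, of the same kinase family as Btk, was listed at 0 in KE and was 1.05 to 2.84 in NT.

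Microglia and macrophage markers differed in how far they fell. The mannose receptor gene Mrc1 had a log2FC of -4.66, and Itgam and Adgre1 had log2FC of -4.07 and -4.01. P2ry12, a purinergic receptor of resting microglia, was 70.5 to 90.6 normalized counts in KE and 131 to 171 in NT, with a log2FC of -0.88.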
